A study of Mus musculus with 8 samples.

Results

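The 34 genes described here encode the enzymes of glycolysis, the glycerol phosphate shuttle, glycogen synthesis and glycogen breakdown, with 3 regulators of the glycogen enzymes. They were chosen by name, and all 34 are among the 24848 gene symbols of the RNA sequencing tables. Expression was measured in 8 libraries of tibialis anterior muscle, a fast shin muscle of the hind limb, from male mice that had undergone hind limb ischemia surgery. Every mouse carried the genotype Leprdb/db, a loss of leptin receptor signalling that makes mice obese and diabetic, so the controls share the genotype and the surgery with the treated mice. In the placebo group, 4 libraries came from mice on a control diet, and the other 4 came from mice on a diet with 75 ppm praliciguat, a stimulator of soluble guanylate cyclase. The diet was meant to match the peak plasma level reached with 10 mg/kg/day by mouth. Mice ate their diet for 31 days from day -3, and muscle was taken on day 28 after surgery. Age is not given in the labels, and wild-type mice and non-ischemic limbs are not analysed here, so no value below says what ischemia or the genotype did to these genes.

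Glycolysis splits glucose 6-phosphate into pyruvate and yields ATP without oxygen. Skeletal muscle draws much of that glucose 6-phosphate from its own glycogen, which glycogen phosphorylase cuts after activation by phosphorylase kinase. The glycerol phosphate shuttle carries the electrons of cytosolic NADH to mitochondria, and its cytosolic enzyme also makes the glycerol backbone of triglycerides. Fast fibres rely on these pathways more than slow fibres do, and most steps have a muscle isozyme beside isozymes of other tissues.

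The libraries held 21099764 to 31896205 expected counts, the read counts per gene estimated by the authors' quantifier. The 8 markers of skeletal muscle, the labelled tissue, summed to 17.9% to 20.0% of all TPM, a length-scaled level that can be compared between genes. Praliciguat replicate 3 stood apart, with 907 TPM of summed macrophage markers against 68.4 to 271 in the other 7 libraries. It was also highest for summed fibroblast markers, at 1940 TPM against 310 to 1083 TPM. For adipocyte markers it held 5770 TPM against 1677 to 4091 TPM. Sample titles carry numbers in 2 runs, a lower and an upper one, each with 2 libraries of each diet. The labels do not say what the runs are, and differences within each run are given below.

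Together the 34 genes made up 5.94% to 7.10% of all TPM in a library. The lowest share was in placebo replicate 3 and the highest in placebo replicate 2. The placebo mean was 6.26% ± 0.560 (SD, n = 4) and the praliciguat mean 6.63% ± 0.270 (SD, n = 4), and the groups overlapped. In such bulk samples fewer cells of a type and less RNA per cell cannot be told apart.

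**Figure D1:**
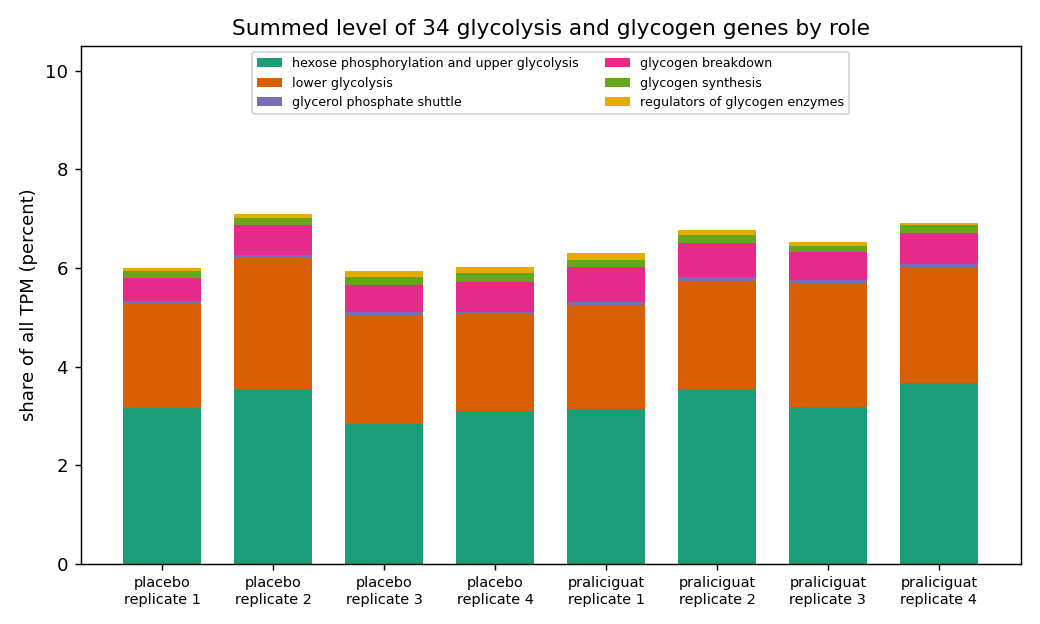
Share of all TPM (vertical axis, percent) taken by the 34 genes in each of the 8 libraries, stacked by role. Bars of placebo libraries reach 5.94% to 7.10% and those of praliciguat libraries 6.30% to 6.92%, with upper and lower glycolysis making up most of every bar.

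Aldoa, the muscle aldolase that splits fructose 1,6-bisphosphate, was the most abundant of the 34 at 25521 ± 2503 TPM (SD over 8 libraries) and ranked 6 among all genes. Eno3, the muscle enolase, followed at 6995 ± 806 TPM. Gapdh, which oxidises glyceraldehyde 3-phosphate, was at 6735 ± 811 TPM. Neighbouring ranks then lay close: Pgam2, the muscle phosphoglycerate mutase, at 5667 ± 754 TPM and Pygm, the muscle glycogen phosphorylase, at 5061 ± 671 TPM did not differ beyond their SDs. Pfkm, the muscle phosphofructokinase that commits sugar to glycolysis, was next at 3327 ± 315 TPM.

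Of the 34 genes, 8 exceeded 1000 TPM, and the same 8 were within the 100 most abundant genes of the muscle. A further 14 lay between 100 and 1000 TPM, 5 between 10 and 100 TPM, and 7 under 10 TPM. The low ones were Pfkl, Hk1, Pygb, Eno1, Pfkp, Pgam1 and Aldoc, all isozymes known best from tissues other than adult fast muscle. Of 33 neighbouring pairs in the order of levels, 8 were separated by more than their SDs. Over the 8 libraries levels varied least for Phkg1, with a coefficient of variation of 7.38%, and among genes over 100 TPM most for Fbp2, at 37.2%, and Ppp1r3c, at 34.2%.

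**Figure D2:**
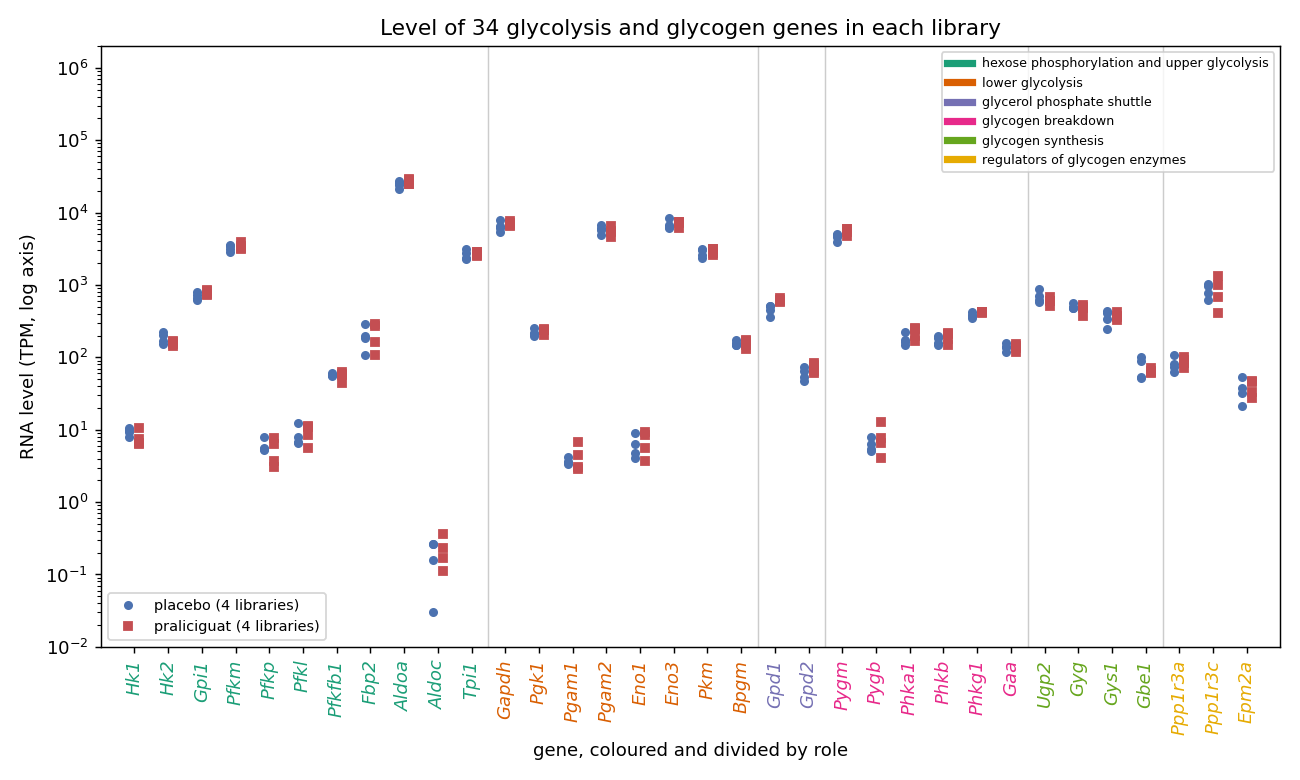
RNA level (TPM, log axis) of the 34 genes in 4 placebo libraries (circles) and 4 praliciguat libraries (squares), coloured and divided by role. Levels run from 0.030 TPM for Aldoc to 28757 TPM for Aldoa, and the symbols of both diets lie on each other for all genes but Gpd1.

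Muscle isozymes took nearly all of the transcript of their families. Pfkm made up 99.6% of phosphofructokinase TPM in both groups (SD 0.135 in placebo and 0.142 in praliciguat, n = 4 each), Pgam2 made up 99.9% of phosphoglycerate mutase and Pygm 99.9% of the phosphorylases Pygm and Pygb. Hk2, the insulin-regulated hexokinase of muscle, held 95.1% ± 1.06 of the Hk1 and Hk2 sum in placebo and 95.2% ± 1.48 in praliciguat (SD, n = 4). The groups overlapped for each of the 6 family shares. Exact two-sided permutation tests of the shares gave p from 0.343 to 0.971, all 0.971 after Benjamini-Hochberg adjustment, where 0.0286 is the smallest p that 4 against 4 libraries allow.

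Enolase needs one caution. Eno1 was the single gene of the 34 with estimated counts that were not whole, in all 8 libraries (tolerance 0.001). The tables also list a copy of it, Eno1b, that took 84.8% to 92.4% of the pair's TPM. Eno1b was at 29.3 to 83.2 TPM against 3.67 to 9.42 TPM for Eno1, and how reads were divided between them was not tested. With Eno1b counted in, Eno3 still made up 98.8% to 99.5% of enolase TPM in every library.

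Upstream sequences of 4 genes are shown: Pgam2 and Pgam1 as a muscle isozyme beside its sister, and Ppp1r3c and Phka1 as examples of the motifs searched for. Each is the 250 bases before a RefSeq start on GRCm38.p6, read 5′ to 3′ on the gene's strand. Capitals mark ACGTG on either strand, the core of the hypoxia response element. In Phka1 they mark CTA and TAG with any 4 bases between them, called the MEF2 type here. This pattern is looser than the sites of the muscle factor MEF2 in its middle and narrower at its ends. The 4 bases in Phka1 include a C, so its match is not a typical MEF2 site. Pgam2 and Pgam1 encode the muscle and the widespread phosphoglycerate mutase, Ppp1r3c a subunit that targets protein phosphatase 1 to glycogen, and Phka1 the muscle alpha subunit of phosphorylase kinase.
Pgam2, chr11:5803797-5804046, minus strand: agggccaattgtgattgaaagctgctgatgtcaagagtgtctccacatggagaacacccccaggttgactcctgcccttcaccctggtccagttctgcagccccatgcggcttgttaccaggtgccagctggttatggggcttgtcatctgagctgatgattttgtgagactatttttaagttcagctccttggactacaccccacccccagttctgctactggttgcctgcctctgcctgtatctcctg
Pgam1, chr19:41911621-41911870, plus strand: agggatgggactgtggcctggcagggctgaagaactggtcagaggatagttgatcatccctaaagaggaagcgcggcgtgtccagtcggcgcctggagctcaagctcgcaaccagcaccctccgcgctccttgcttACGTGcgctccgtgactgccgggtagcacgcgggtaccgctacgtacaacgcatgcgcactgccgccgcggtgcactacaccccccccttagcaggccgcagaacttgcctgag
Ppp1r3c, chr19:36736605-36736854, minus strand: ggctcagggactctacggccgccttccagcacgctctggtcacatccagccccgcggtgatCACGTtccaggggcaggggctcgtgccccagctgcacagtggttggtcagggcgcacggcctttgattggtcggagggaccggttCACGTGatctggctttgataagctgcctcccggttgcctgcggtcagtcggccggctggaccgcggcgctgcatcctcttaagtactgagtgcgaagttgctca
Phka1, chrX:102644247-102644496, minus strand: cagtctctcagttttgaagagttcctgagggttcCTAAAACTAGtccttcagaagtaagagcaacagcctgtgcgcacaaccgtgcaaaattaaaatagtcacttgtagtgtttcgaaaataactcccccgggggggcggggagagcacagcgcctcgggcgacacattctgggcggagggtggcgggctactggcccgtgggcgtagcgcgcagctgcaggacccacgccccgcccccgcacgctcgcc
The Pgam2 stretch, 53.2% G and C, holds none of the motifs in the form searched for. It does hold CTA and TAA with 4 bases, all T, between them. MEF2 sites can take this form, which was not searched for. The Pgam1 stretch, 64.0% G and C, holds ACGTG 110 to 114 bases before the start. Ppp1r3c has a match 185 to 189 bases before its start and a CACGTG, the palindromic E-box that contains ACGTG, 99 to 104 bases before it.

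Promoter windows of 300 bases, from 250 before to 50 after a start, were available for 33 of the 34 genes, in 48 windows. ACGTG occurred on either strand in 20 of the 48 (41.7%), against 19.6% of all 32851 windows in the RefSeq table. Of the 33 matched genes, 18 had it in some window, among them Aldoa, Pfkm, Gapdh, Pgk1, Pkm, Hk2 and Pygm. Of all 27025 genes in the RefSeq table, 21.8% had it in some window, and genes with several windows have more chances to hold it. CACGTG occurred in 5 of the 48 (10.4%) against 7.15% of all. The MEF2 type, with any 4 bases between CTA and TAG, occurred in 2 of the 48 (4.17%), against 3.69%. Those 2 were windows of Phka1 and Ppp1r3a. Forms with other ends, such as the TAA in Pgam2, were not counted, so this is not the share of windows with a MEF2 site. Windows of one gene can overlap and base composition was not matched, so these shares describe letters and not binding.

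The comparison of diets asked whether praliciguat altered muscle RNA. None of the 33 genes tested passed an adjusted p under 0.05 with edgeR's quasi-likelihood test, and neither did any of all 13569 genes tested (0.0%). Only Aldoc, at 0.030 to 0.360 TPM, was too low to be tested. At an unadjusted p under 0.05, edgeR gave 1 of the 33 (3.03%), Gpd1, against 778 genes or 5.73% of all, so the share among these genes was not above the background. DESeq2 called 129 of 13534 genes (0.953%) and limma-voom 0, and neither called any of the 33; each put the same 1 gene, Gpd1, at an unadjusted p under 0.05.

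Of the 33 genes, 25 had a log2 fold change above 0 and 8 below 0, against 55.2% above 0 over all genes. Their median log2 fold change was 0.12, against 0.02 over all genes, and the median over these genes varied between libraries of one diet by an SD of 0.12. No test was made of the set as a whole. In 1 gene, again Gpd1, every praliciguat library was above every placebo library, against 1.32% of all genes, and in 0 every praliciguat library was below, against 2.54%. For 21 of the 33 the 95% interval of the fold change lay within 1.5-fold either way, and for 31 within 2-fold, the exceptions being Fbp2 and Pygb.

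**Figure D3:**
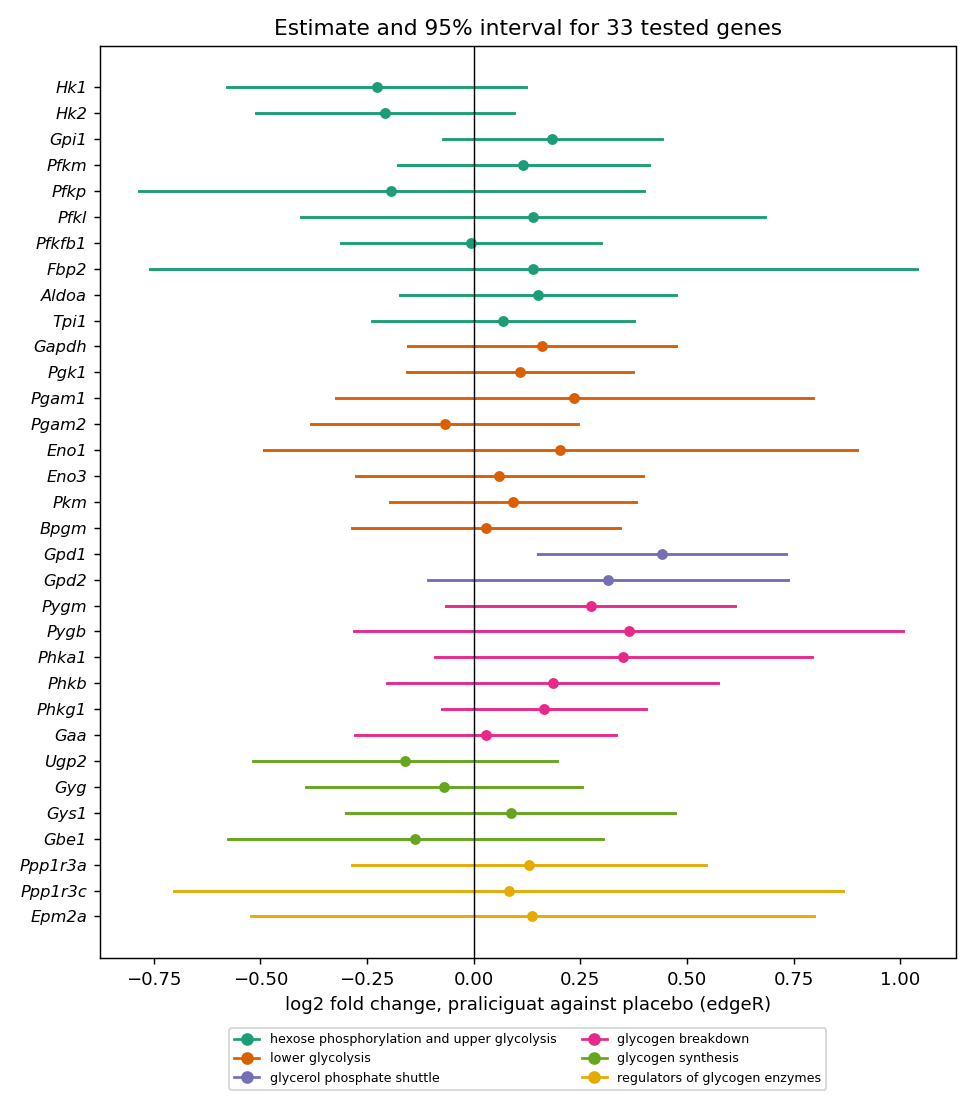
Log2 fold change of praliciguat against placebo for 33 genes (horizontal axis) with 95% intervals from edgeR, coloured by role. The interval of Gpd1 runs from 0.15 to 0.73, and those of the other 32 genes hold 0.

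In the glycerol phosphate shuttle, Gpd1, the cytosolic glycerol 3-phosphate dehydrogenase (chromosome 15, 99717587 to 99725014 on GRCm38.p6), gave the lowest p of the set. Its levels in CPM, read counts scaled for library size, were 529, 791, 714 and 640 in placebo replicates 1 to 4 and 907, 890, 907 and 929 in praliciguat replicates 1 to 4. All 4 praliciguat libraries sat in a narrow band above the highest placebo library. Means were 669 ± 112 and 908 ± 15.7 CPM (SD, n = 4), and the log2 fold change was 0.44 ± 0.13 (SE), or 1.36-fold. With edgeR the p was 0.00718 and the adjusted p 0.471, so Gpd1 ranked 207 of all genes and was not called. DESeq2 gave an adjusted p of 0.0545, and leaving out single libraries gave log2 fold changes of 0.35 to 0.53.

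The Gpd1 difference was 0.47 within the lower run and 0.44 within the upper run on the log2 CPM scale. Adipocytes also make Gpd1, and all 7 adipocyte markers had estimates above 0. Their summed level was 1677 to 3902 TPM in placebo and 2153 to 5770 TPM in praliciguat, with overlap. Praliciguat replicate 2, with an adipocyte sum of 2153 TPM, had 571 TPM of Gpd1, while placebo replicate 3, with 3902 TPM, had 514 TPM. Within praliciguat, however, the libraries had the same order for Gpd1 in TPM and for the adipocyte sum. Replicate 3, with the highest sum of 5770 TPM, had the highest Gpd1, 652 TPM. In CPM the order was not the same, as Gpd1 was highest in replicate 4, at 929 CPM against 907 CPM in replicate 3. Within placebo the orders of Gpd1 and of the adipocyte sum differed in either unit. Slow fibre markers had a sum of 1330 to 3241 TPM in placebo and 447 to 707 TPM in praliciguat without overlap, while 10 fast fibre markers summed to 16.7% to 18.6% and 17.1% to 20.1% of TPM. The part of fat cells or fibre types in the Gpd1 values was not tested.

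Gpd2, the mitochondrial enzyme of the shuttle, was at 161, 209, 136 and 218 CPM in placebo and 252, 272, 177 and 199 CPM in praliciguat. Both praliciguat libraries of the lower run exceeded all placebo libraries, and the upper pair did not. Its log2 fold change was 0.31 ± 0.19 (SE; edgeR adjusted p = 0.976), with 0.51 in the lower run and 0.12 in the upper.

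**Figure D4:**
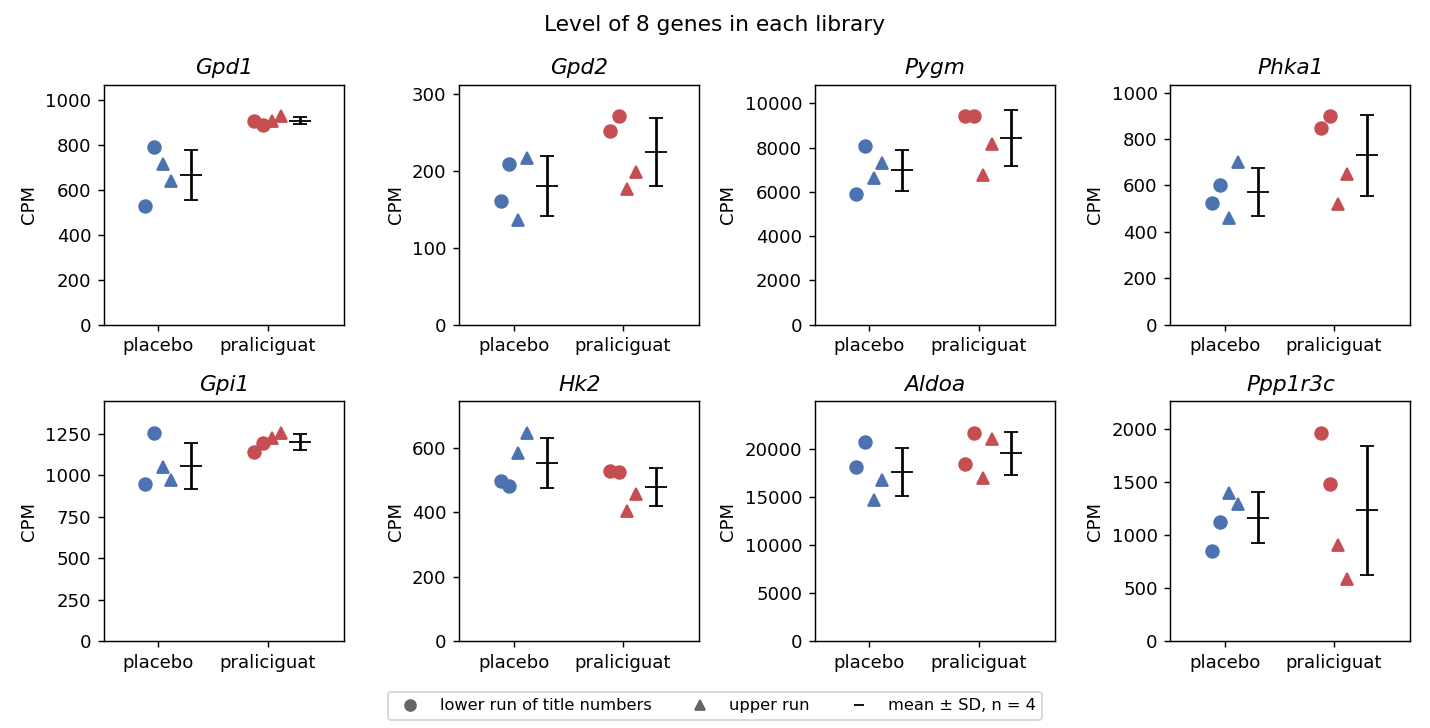
CPM (vertical axes from 0) of 8 genes in each library, circles for the lower and triangles for the upper run of title numbers, with mean and SD of 4 libraries in black. Gpd1 separates by diet. Among praliciguat libraries, the lower run lies above the upper for Gpd2, Pygm, Phka1, Ppp1r3c and Hk2, and below it for Gpi1.

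Glycogen breakdown showed estimates above 0 for 6 of 6 genes, with a median log2 fold change of 0.23, and none had an edgeR p under 0.05. Pygm was at 5891, 8075, 6641 and 7287 CPM in placebo and 9412, 9417, 6752 and 8161 CPM in praliciguat. All praliciguat libraries but replicate 3 were above the highest placebo value. The log2 fold change was 0.27 ± 0.15 (SE; edgeR adjusted p = 0.961), made of 0.45 in the lower run and 0.09 in the upper.

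Phka1, the phosphorylase kinase subunit whose upstream bases are printed above, showed the same split. Placebo libraries held 525, 603, 460 and 700 CPM and praliciguat libraries 848, 898, 519 and 651 CPM, so that the lower run separated the diets and the upper run did not. Its log2 fold change was 0.35 ± 0.20 (SE; edgeR adjusted p = 0.961), with 0.63 and 0.03 in the runs. Among its partners, the beta subunit gene Phkb was at 0.19 and the catalytic subunit gene Phkg1 at 0.16. Gaa, the acid glucosidase that degrades glycogen in lysosomes, was at 0.03.

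Pygb, the brain phosphorylase, had the second highest estimate of the set after Gpd1, 0.36 ± 0.28 (SE; edgeR adjusted p = 0.984). Its praliciguat libraries ranged from 8.94 to 25.2 CPM, with the highest value in replicate 3. That library also held the highest values of Pgam1 and Eno1, other isozymes at low level. It had the highest sums of macrophage, fibroblast and adipocyte markers as well. Not all low isozymes peaked there: Pfkp and Pfkl were highest in placebo replicate 3. Hk1 was at 22.8 CPM in placebo replicate 2 and 22.7 CPM in praliciguat replicate 3. Without praliciguat replicates 3 and 4 the estimates of Pygb, Pgam1 and Eno1 were -0.13, -0.22 and -0.26. The part of any of these cell types in the low isozymes was not tested.

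In glycogen synthesis 1 of 4 genes was above 0 and 3 below, with a median log2 fold change of -0.10. Ugp2, which makes the UDP-glucose used for glycogen, was at 835, 950, 997 and 1242 CPM in placebo and 906, 1073, 723 and 897 CPM in praliciguat. The groups overlapped, and the log2 fold change was -0.16 ± 0.16 (SE; edgeR adjusted p = 0.984). Gbe1, the branching enzyme, was at 81.7, 89.2, 131 and 154 CPM in placebo and 98.6, 107, 97.0 and 113 CPM in praliciguat. Placebo values thus enclosed the praliciguat values, and the estimate was -0.14 ± 0.19 (SE; edgeR adjusted p = 0.984). Gyg, the glycogenin primer, stood at -0.07 and Gys1, muscle glycogen synthase, at 0.09. No test compared breakdown with synthesis.

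Regulators of the glycogen enzymes differed between libraries of one diet. Ppp1r3a, the muscle glycogen-targeting subunit of protein phosphatase 1, was at 247, 299.9, 297 and 412 CPM in placebo and 407, 379.95, 262 and 324 CPM in praliciguat, for a log2 fold change of 0.13 ± 0.18 (SE; edgeR adjusted p = 0.984). Epm2a, which encodes the glycogen phosphatase laforin, was at 10.8, 16.8, 18.2 and 26.1 CPM in placebo and 24.1, 25.3, 13.0 and 16.8 CPM in praliciguat, for 0.14 ± 0.29 (SE; edgeR adjusted p = 0.989). In both genes the praliciguat pair of the lower run was high and the pair of the upper run low, with differences of 0.53 and -0.26 for Ppp1r3a and 0.87 and -0.56 for Epm2a.

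Ppp1r3c was chosen for its spread after its values were seen. Placebo libraries held 851.5, 1119, 1391 and 1294 CPM and praliciguat libraries 1962, 1475, 904 and 588 CPM, so the highest and the lowest library of all 8 had the same diet. The log2 fold change was 0.08 ± 0.35 (SE; edgeR adjusted p = 0.996), from 0.80 in the lower run and -0.88 in the upper. Over the 33 genes, 12 (36.4%) had the same sign in both runs, 11 of them above 0, and 21 had opposite signs. Over all genes tested 40.7% had the same sign.

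**Figure D5:**
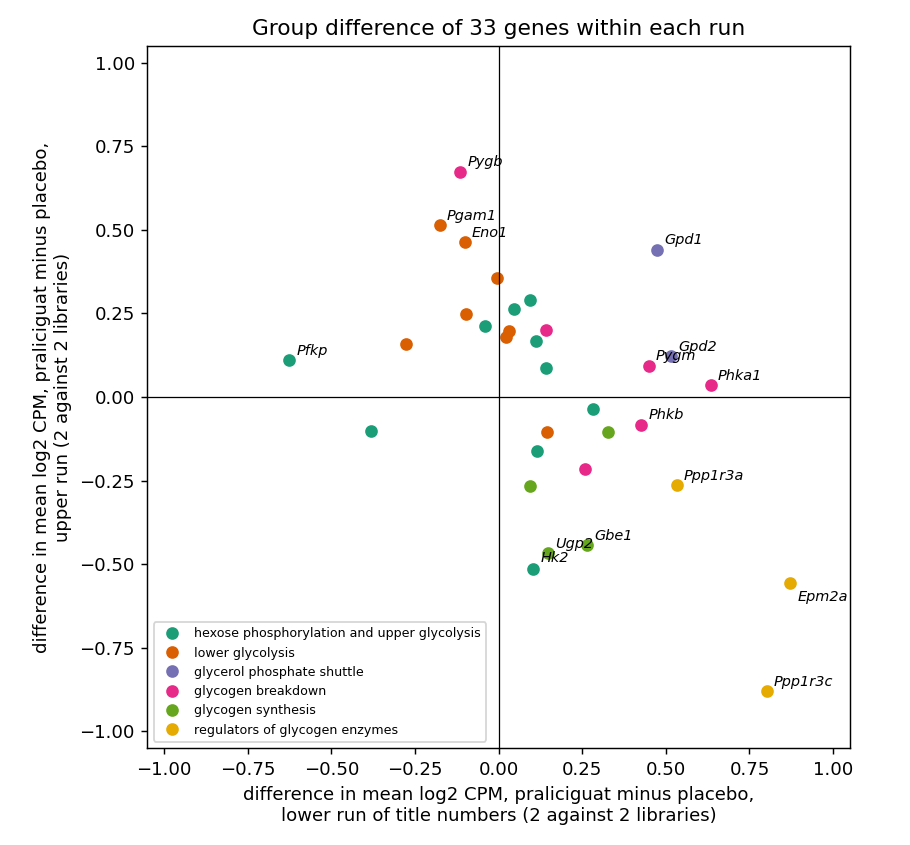
Difference in mean log2 CPM, praliciguat minus placebo, within the lower run (horizontal axis) and within the upper run (vertical axis), 2 against 2 libraries each, for 33 genes coloured by role. Gpd1 lies at 0.47 and 0.44, and Ppp1r3c at 0.80 and -0.88.

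In upper glycolysis 6 of 10 tested genes were above 0 and 4 below, with a median log2 fold change of 0.09. Gpi1, glucose 6-phosphate isomerase, was at 949, 1256, 1049 and 973 CPM in placebo and 1137, 1193, 1221 and 1252 CPM in praliciguat. Placebo replicate 2 was the highest of all, and the other 3 placebo libraries lay below every praliciguat library. The estimate was 0.18 ± 0.11 (SE; edgeR adjusted p = 0.984), with 0.09 and 0.29 in the runs. Hk2 was at 496, 482, 582 and 647 CPM in placebo and 527, 524, 405 and 455 CPM in praliciguat. Its estimate of -0.21 ± 0.13 (SE; edgeR adjusted p = 0.984) came from 0.10 in the lower run and -0.51 in the upper.

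The abundant enzymes of that stretch had estimates close to the median of the 33. Pfkm was at 4254, 5305, 4479.5 and 5134 CPM in placebo and 5003, 5493, 4409 and 5876 CPM in praliciguat, an estimate of 0.12 ± 0.13 (SE; edgeR adjusted p = 0.984). Aldoa was at 18174, 20731, 14686 and 16822 CPM in placebo and 18487, 21689, 16968 and 21016.5 CPM in praliciguat, an estimate of 0.15 ± 0.14 (SE; edgeR adjusted p = 0.984). Groups overlapped for both. Tpi1, triose phosphate isomerase, was at 0.07, and Pfkfb1, which sets the level of the activator fructose 2,6-bisphosphate, at -0.01 with an interval of -0.31 to 0.30. Fbp2, the muscle fructose bisphosphatase that runs the Pfkm step backwards, had the widest interval, -0.76 to 1.04 around 0.14. The remaining 3, Hk1, Pfkp and Pfkl, lay at -0.23, -0.19 and 0.14.

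Lower glycolysis had 7 of 8 genes above 0 and 1 below, with a median log2 fold change of 0.10. Gapdh was at 3756, 5077, 3854 and 3335 CPM in placebo and 4237, 4479, 4576 and 4600.2 CPM in praliciguat, with placebo replicate 2 above the narrow praliciguat band and the other placebo libraries under it. Its estimate was 0.16 ± 0.14 (SE; edgeR adjusted p = 0.984). Pgam1 was at 3.34, 3.25, 3.74 and 3.19 CPM in placebo and 2.98, 2.84, 5.89 and 4.19 CPM in praliciguat, where the lower run fell under and the upper run over all placebo values. Its estimate was 0.24 ± 0.25 (SE; edgeR adjusted p = 0.984).

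The muscle mutase Pgam2 was the 1 gene of that stretch below 0. Placebo libraries held 2357, 2837, 2358 and 1924 CPM and praliciguat libraries 2314, 1965, 2508 and 2254 CPM, an estimate of -0.07 ± 0.14 (SE; edgeR adjusted p = 0.989). Eno3 was at 4962, 6611, 4361 and 4657 CPM in placebo and 4823, 5936, 5258 and 5453 CPM in praliciguat, an estimate of 0.06 ± 0.15 (SE; edgeR adjusted p = 0.992). Pgk1 and Pkm, the kinases that yield ATP, were at 0.11 and 0.09, Bpgm, which makes 2,3-bisphosphoglycerate, at 0.03, and Eno1 at 0.20, or 0.31 ± 0.32 (SE) with Eno1b counted in.

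Single libraries set part of this picture. Placebo replicate 1 was the lowest of 8 for 11 of the 33 genes, and placebo replicate 2 and praliciguat replicate 2 were each the highest for 9. Without placebo replicate 2, 4 of 34 genes had an edgeR p under 0.05, against 4.7% of all genes: Gapdh, Gpi1, Phkg1 and Gpd1. Without praliciguat replicate 3, 5 of 34 had, against 9.25% of all: Gpd1, Gpd2, Hk1, Phka1 and Pygm. Leaving out praliciguat replicates 3 and 4 together gave 8 of 34, against 14.5% of all 13830 genes tested: Gpd1, Gpd2, Pygm, Phka1, Phkb and Ppp1r3c were above 0, and Hk1 and Pfkp below. In none of these comparisons did a gene of the set reach an adjusted p under 0.05.

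Other genes of the pathways gave 0 calls with edgeR as well. Of 16 further glycolysis genes 10 could be tested, 7 above 0 and 3 below, the 2 of lowest p being Gpd1l, a relative of Gpd1, at 0.18 ± 0.09 (SE) and Pfkfb2 at -0.27 ± 0.15 (SE). Of 22 further glycogen genes 19 could be tested, 14 above 0 and 5 below. An edgeR p under 0.05 was found for 3 of them (15.8%), against 5.73% of all genes tested. The same 3 were the ones without overlap between groups, against 3.86% of all genes. Over the 52 tested genes of all further pathway lists, these 3 made up 5.77%, close to the share at that p over all genes. Pgm5, a phosphoglucomutase relative of cell-matrix junctions, was at 35.6 to 40.2 CPM in placebo and 20.5 to 30.8 CPM in praliciguat without overlap, a log2 fold change of -0.58 ± 0.12 (SE; edgeR adjusted p = 0.259, DESeq2 adjusted p = 0.0111). Prkag3, the AMP-activated kinase subunit of fast muscle, was at 66.1 to 88.2 CPM and 95.4 to 108 CPM without overlap, 0.38 ± 0.10 (SE; edgeR adjusted p = 0.399). The third, listed as Pgm2 and named here after its value was seen, carries the accession that RefSeq now names Pgm1, the muscle phosphoglucomutase that links glycogen to glycolysis; it was at 847 to 1164 CPM and 1183 to 1332 CPM without overlap, 0.30 ± 0.12 (SE; edgeR adjusted p = 0.774).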

How the data were processed

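The 8 libraries were built with a stranded mRNA kit from RNA of snap-frozen muscle, per the labels' protocols. Reads went through FastQC, Trimmomatic, STAR 2.5.3a (aligner) and RSEM 1.2.28 (quantifier) against mm10, per the submitters' processing notes. The counting's strand setting was not given in the sources used here. Reads of overlapping antisense genes may therefore be mixed. The authors deposited 1 gene table per library. Per the file headers, its expected count column is RSEM's estimate of the reads of each gene. The deposited TPM column is the length-scaled level, per the file headers, and served for levels, shares and sums. The deposited effective length served as an offset in 1 alternative.

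Expected counts were rounded and filtered with filterByExpr, which kept 13569 of 24848 genes. They were scaled by TMM and tested with edgeR 4.0.16 (quasi-likelihood F test, robust) in R 4.3.3, with Benjamini-Hochberg adjustment over all genes tested and a threshold of 0.05. CPM used TMM-scaled library sizes, and log2 CPM within runs a prior count of 2. DESeq2 1.42.0 and limma 3.58.1 were alternatives. The edgeR fit was also run on simulated counts with known changes. A gene at 0 counts could lie up to 0.0875 to 0.134 CPM, from 3 counts, for counting error only.

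Groups came from the labels. These do not tie libraries to separate mice, so the p-values rest on spread between libraries that may be technical. Replicates were numbered in accession order and pair nothing. No libraries of a group agreed within sampling noise (chi-square per degree of freedom 25.7 to 153). Genes and lists were chosen with earlier results of these data known. Values in every library are given for the 2 genes of lowest p in each role, genes whose groups did not overlap and the main isozyme of each family. From each list of further pathway genes the 2 of lowest p were named. Promoters and coordinates are RefSeq's on GRCm38.p6.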

Additional observations from a re-analysis of the deposited data

Results flagged for a closer look

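Of 78 groups of 4 values examined for a single library far from the rest, 4 were picked out, and chance picks out about 1 in 20 groups. Pfkp, the platelet phosphofructokinase, was at 16.5 CPM in placebo replicate 3 against 11.4 to 11.9 CPM in the other placebo libraries. Bpgm was at 194 CPM in placebo replicate 2 against 152 to 156 CPM. Phkg1 was at 512 CPM in praliciguat replicate 3 against 551 to 554 CPM in the other praliciguat libraries. The Hk2 share of hexokinase TPM was 93.0% in praliciguat replicate 3 against 95.7% to 96.2%.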

How the results depend on the processing

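No tested gene of the 34 passed an adjusted p under 0.05 under any alternative run, and Gpd1 stayed above 0 in all of them. Over all genes, where edgeR called 0, 129 were called by DESeq2, 3 with the run of title numbers as a block, 85 without praliciguat replicates 3 and 4, 11 at an adjusted p under 0.1, and 0 to 5 when single libraries were left out, the 5 being without placebo replicate 3. Of the glycogen genes named, Pgm5 was called by DESeq2, at a log2 fold change of -0.58. Genes of the 33 at an unadjusted p under 0.05 numbered 1 to 5 when single libraries were left out and 8 without praliciguat replicates 3 and 4; over all genes the shares were 4.18% to 9.25% and 14.5%. Genes whose groups did not overlap numbered 1 to 5 and 9, against 5.32% to 9.49% and 25.9% of all genes. The median log2 fold change of the 33 ran from 0.046 to 0.18, lowest without placebo replicate 1.

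The genes named next changed sign under some alternative, and the cause was not tested. Leaving out single libraries gave Pfkfb1 -0.091 to 0.11, Fbp2 -0.078 to 0.44, Pgam1 -0.016 to 0.37, Pgam2 -0.16 to 0.031, Eno3 -0.015 to 0.20, Bpgm -0.054 to 0.12, Gaa -0.048 to 0.13, Gyg -0.15 to 0.052, Gys1 -0.048 to 0.18, Gbe1 -0.26 to 0.045, Ppp1r3c -0.23 to 0.31 and Epm2a -0.034 to 0.38. Without praliciguat replicates 3 and 4, Pfkl was at -0.16, Pfkfb1 at 0.16, Pgam1 at -0.22, Eno1 at -0.26, Pygb at -0.13 and Gyg at 0.10. With limma on log2(TPM + 1) and log2(TPM + 0.1), Bpgm was at -0.019, Gaa at -0.019 and Ppp1r3c at -0.079; Ppp1r3c was at -0.032 by limma-voom and -0.022 with the run as a block.

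The group difference in isozyme share, in percentage points, ran over single libraries left out from -0.297 to 0.801 for Hk2, -0.0333 to 0.0947 for Pfkm, -0.000226 to 0.000139 for Aldoa, -0.0227 to 0.0105 for Eno3 and -0.0412 to 0.0267 for Pygm. Without praliciguat replicates 3 and 4 it was 0.00378 for Pgam2, 0.0234 for Eno3 and 0.0451 for Pygm. Counting Eno1b with Eno1 was an alternative chosen after seeing the data. No paired analysis was possible because replicate numbers follow accession order and pair no samples. Aldoc was tested under some alternatives only.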

Other observations

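The branches that leave glycolysis gave 0 calls with edgeR. In the pentose phosphate branch, which makes NADPH and ribose from glucose 6-phosphate, 8 of 8 genes had estimates above 0, with a median log2 fold change of 0.27 against 0.02 over all genes tested. H6pd, the enzyme of its first steps in the endoplasmic reticulum, was at 48.9 to 73.0 CPM in placebo and 61.6 to 97.0 CPM in praliciguat, an estimate of 0.31 ± 0.16 (SE; edgeR adjusted p = 0.947) that was 0.12 without praliciguat replicates 3 and 4. G6pdx, the cytosolic dehydrogenase, was at 9.71, 7.71, 25.1 and 9.18 CPM in placebo and 15.1, 12.4, 32.6 and 32.2 CPM in praliciguat, an estimate of 0.83 ± 0.46 (SE; edgeR adjusted p = 0.961). That estimate was 0.088 without praliciguat replicates 3 and 4 and 0.62 to 1.38 with single libraries left out. The 3 highest libraries for G6pdx, placebo replicate 3 and praliciguat replicates 3 and 4, were also the 3 highest for summed macrophage markers, at 271, 907 and 165 TPM. The same 3 were the highest for summed adipocyte markers, at 3902, 5770 and 4091 TPM. The part of either cell type was not tested.

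Of 15 genes for the entry of pyruvate into mitochondria, 10 were above 0 and 5 below, with a median log2 fold change of 0.05. Pcx, which carboxylates pyruvate to oxaloacetate, was at 44.5 to 100.1 CPM in placebo and 77.0 to 111 CPM in praliciguat, an estimate of 0.48 ± 0.25 (SE; edgeR adjusted p = 0.948). Pdk2, a kinase that switches pyruvate dehydrogenase off, was at 707 to 805 CPM in placebo and 686 to 996 CPM in praliciguat, an estimate of 0.22 ± 0.13 (SE; edgeR adjusted p = 0.963).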
